A study of Sus scrofa with 3 samples.

Results

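The proximal part of the DLK1-DIO3 miRNA region was followed in pig liver through 9 miRNAs, miR-493, miR-337, miR-665, miR-431, miR-433, miR-127, miR-432, miR-136 and miR-370. They were chosen by name and place in the region, with no limit on their levels, from the lines of the tables that bear a known miRNA of pig or another mammal. Reads were found for 7 of the 9, on 13 arms, out of 671 miRNA names and 988 arms with a read in any library. An arm is the strand of a miRNA hairpin, 5p or 3p, from which the mature miRNA is cut. miR-337 and miR-433 had no line in any of the 3 tables, so nothing can be said of them below the detection limit given next.

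The study sequenced small RNA of whole liver from male pigs of the Jinhua breed at 3 ages, embryonic day 90 (E90), 30 days after birth (P30d) and 7 years after birth (P7y). There is 1 library per stage, although 3 pigs are named for each, and pooling is not mentioned, so each comparison sets 1 library against another and has no replicate check. The libraries held 9243601, 3622993 and 9920207 reads of named miRNAs at E90, P30d and P7y, and levels are counts per 1000000 of these (CPM). A count of 0 allows up to 3 reads, which is 0.325 CPM at E90, 0.828 CPM at P30d and 0.302 CPM at P7y. The 95% intervals given throughout, and these limits, describe counting error alone. PCR copies of a molecule are counted as separate reads, so they may be too narrow even for that. In whole liver, fewer cells of a type and less RNA per cell cannot be told apart.

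DLK1-DIO3 is an imprinted region, in which the chromosome from the mother expresses noncoding RNAs, among them MEG3 and the miRNAs, and the chromosome from the father expresses the protein-coding genes DLK1, RTL1 and DIO3. miR-127, miR-136, miR-431, miR-432 and miR-433 are made from a transcript antisense to RTL1, a retrotransposon-derived gene needed in the mouse placenta. In mouse, miRNAs of that transcript are fully complementary to the Rtl1 mRNA and direct its cleavage. DLK1, the first gene of the region, is a membrane protein of liver progenitor cells before birth.

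The reads that represent the most abundant arms at E90 are shown first, because the seed, bases 2 to 8 in capitals, largely decides which mRNAs a miRNA can pair with. They are the reads that the deposited tables give for each arm, in DNA letters, 5′ to 3′. Per the file headers this is the read with the highest mapping score, which need not be the most abundant.
miR-127-3p: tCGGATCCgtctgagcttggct
miR-127-5p: cTGAAGCTcagagggctctgat
miR-136-3p: aTCATCGTctcaaatgagtct
miR-136-5p: aCTCCATTtgttttgatgatgg
miR-431-5p: tGTCTTGCaggccgtcatgca
miR-432-5p: tCTTGGAGtaggtcattgggtgg
miR-493-5p: tTGTACATggtaggctttcatt
miR-493-3p: tGAAGGTCtactgtgtgccagg
miR-370-3p: gCCTGCTGgggtggaacctggt
Each arm was compared by the seed of its representative read with the most copies in any library, and other forms of an arm were not compared. No such seed was shared between any of the 13 arms. None was shared either with another arm of the series whose representative read had at least 50 copies. The members are thus grouped by their place in the imprinted region and not by seed.

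The tables placed 6 of the 7 miRNAs with a read on chromosome 7 of Sscrofa10.2, between positions 132069387 and 132099660, a span of 30274 bp. The miR-493 hairpin lay at chr7:132069387-132069497 on the minus strand of that assembly. All others lay on the plus strand, miR-432 at chr7:132078995-132079082, miR-136 at chr7:132079189-132079280, miR-665 at chr7:132092901-132092972, miR-431 at chr7:132097559-132097703 and miR-127 at chr7:132099535-132099660. The miR-432 and miR-136 hairpins stood 106 bp apart, and miR-431 and miR-127 stood 1831 bp apart. No predicted hairpin without a known name (0 in the 3 tables) lay in this span. RefSeq's gene table for Sscrofa11.1, a later assembly whose coordinates are not used here, lists DLK1, MEG3, MIR493 and RTL1 in this order, and puts MIR127, MIR432 and MIR136 inside RTL1. The order of miR-127 relative to miR-432 and miR-136 thus differs between the assemblies. miR-370 was not placed on chromosome 7 by the tables, since its main lines carry no genome position.

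The hairpins of the 2 most abundant members are printed because both arms of each are compared below, and the reads that represent their 2 arms at E90 are in capitals.
miR-127 hairpin: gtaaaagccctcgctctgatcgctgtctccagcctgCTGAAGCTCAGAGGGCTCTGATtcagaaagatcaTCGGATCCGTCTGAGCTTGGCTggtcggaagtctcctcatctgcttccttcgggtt
miR-136 hairpin: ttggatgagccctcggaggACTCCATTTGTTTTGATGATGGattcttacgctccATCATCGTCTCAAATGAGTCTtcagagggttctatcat

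**Figure D1:**
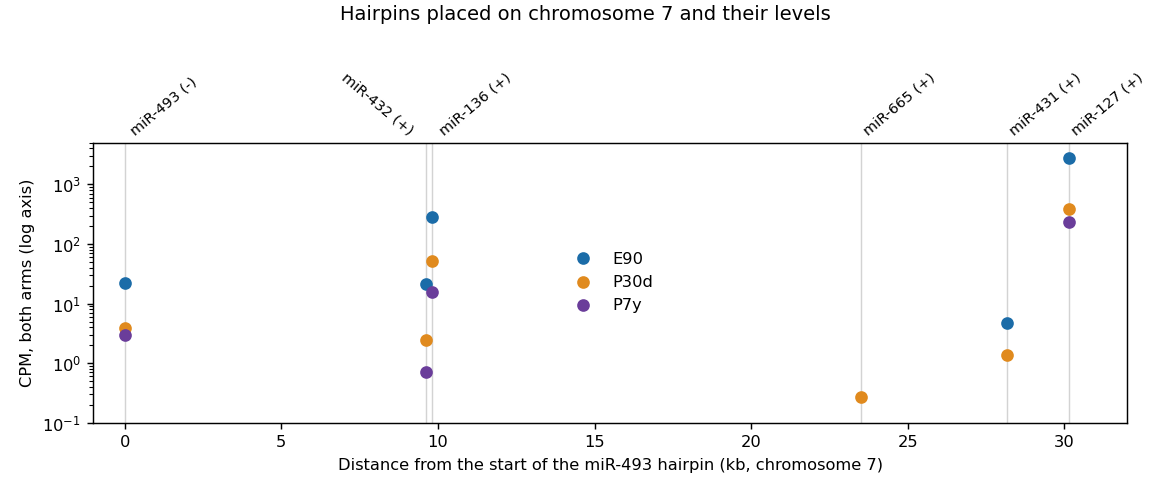
Level of each of the 6 members placed on chromosome 7 (CPM of both arms, log axis) against the distance of its hairpin from the start of the miR-493 hairpin in kb, with the strand in brackets and 1 point per library. Counts of 0 are not drawn. miR-127, at the far end of the span, is the highest in each library, and neighbours differ widely, such as miR-432 and miR-136, 106 bp apart, at 21.0 and 280 CPM at E90.

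The cluster was highest in the fetal library. Its summed level was 3191 CPM at E90, 462 CPM at P30d and 257 CPM at P7y, from 29493, 1674 and 2549 reads. It made up 0.319% of named miRNA reads at E90 (interval 0.315% to 0.323%). At P30d the share was 0.0462% (0.0440% to 0.0485%), and at P7y it was 0.0257% (0.0247% to 0.0267%). The sum was 6.91-fold lower at P30d than at E90, a log2 ratio of -2.79 (-2.86 to -2.72). It was 12.4-fold lower at P7y than at E90, a log2 ratio of -3.63 (-3.69 to -3.58).

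Between P30d and P7y the direction depended on the scaling. The CPM of the sum was 1.80-fold lower at P7y than at P30d, a log2 ratio of -0.85 (-0.94 to -0.76), which is under the 2-fold size used for a call. The median log2 ratio of the 325 arms with a mean of 10 CPM or more was -1.37 for P7y over P30d, against -0.11 for P30d over E90 and -1.07 for P7y over E90. Relative to that median, the sum was higher by 0.52 at P7y than at P30d, and lower at P30d than at E90 (-2.68) and at P7y than at E90 (-2.56). TMM factors turned the ratio of P7y over P30d to 0.23 and DESeq2 size factors to 0.20, whereas the ratios to E90 stayed at -2.63 or lower with TMM factors and at -2.59 or lower with DESeq2 size factors. Without miR-127-3p, the sum was 24.3 CPM at P7y and 77.0 CPM at P30d, a log2 ratio of -1.66 (-1.92 to -1.41) for P7y over P30d. The size and direction of the step after P30d thus depended on miR-127-3p and on the scaling.

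**Figure D2:**
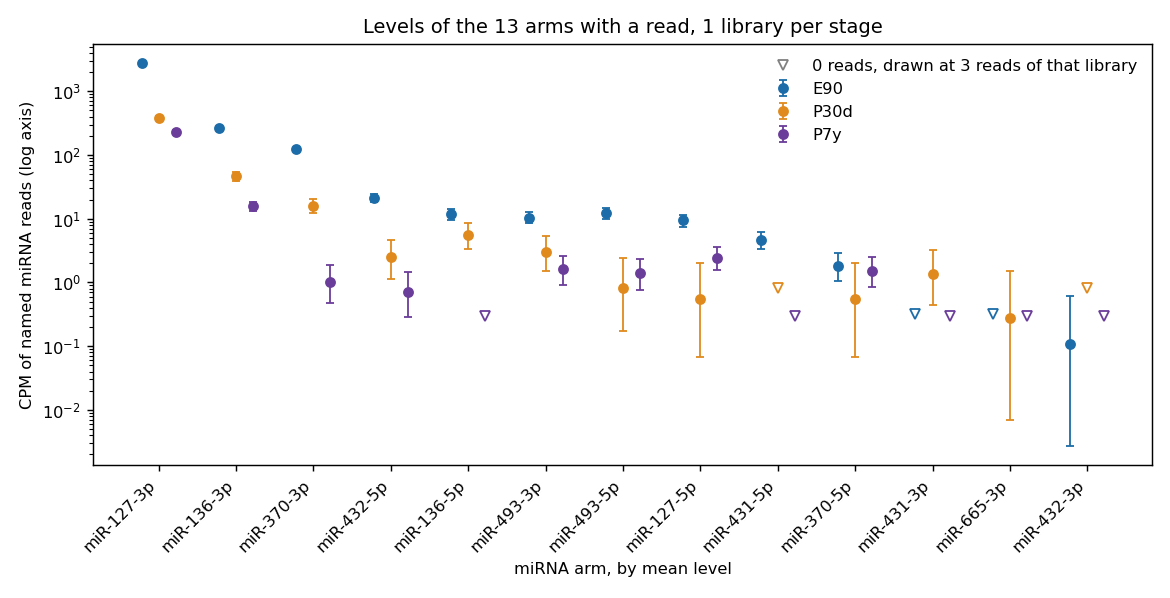
Level of each of the 13 arms with a read (CPM, log axis) in the libraries of E90, P30d and P7y, with 95% counting intervals as bars. Open triangles mark 0 reads, drawn at the CPM of 3 reads. E90 is the highest point for the 10 arms with the highest mean, and only miR-127-3p, miR-136-3p and miR-370-3p were above 100 CPM in a library.

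miR-127 carried most of the reads in each library. Its 3p arm, the strand that dominates this hairpin, had 25217 reads (2728 CPM) at E90, 1395 reads (385 CPM) at P30d and 2308 reads (233 CPM) at P7y. E90 was far above both later libraries, and P7y was the lowest in CPM. By number of reads it ranked 43 of 791 arms at E90, 109 of 748 at P30d and 90 of 574 at P7y. The log2 ratio was -2.82 (-2.90 to -2.75) for P30d over E90, -0.73 (-0.82 to -0.63) for P7y over P30d and -3.55 (-3.61 to -3.49) for P7y over E90. With TMM factors the ratio of P7y over P30d turned to 0.35, and with DESeq2 size factors to 0.32. The miR-127 hairpin made up 85.8% of the cluster's reads at E90, with an interval of 85.4% to 86.2%. The share was 83.5% at P30d (81.6% to 85.2%), and it was 91.5% at P7y (90.3% to 92.5%).

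miR-136, also antisense to RTL1, was second in level and had the same order of libraries. miR-136-3p had 2483 reads (269 CPM) at E90, 168 reads (46.4 CPM) at P30d and 155 reads (15.6 CPM) at P7y. Its log2 ratio was -2.53 (-2.77 to -2.31) for P30d over E90, -1.57 (-1.89 to -1.25) for P7y over P30d and -4.10 (-4.35 to -3.87) for P7y over E90. Under TMM factors the P7y over P30d ratio was -0.49, and under DESeq2 size factors -0.52, short of the 2-fold size. miR-136-5p had 109 reads (11.8 CPM) at E90, 20 reads (5.52 CPM) at P30d and 0 reads at P7y. With the 0 set to 3 reads, it was 39.0-fold lower at P7y than at E90 and 18.3-fold lower at P7y than at P30d. The log2 interval limits nearest to 0 were -4.96 and -3.76.

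miR-432 and miR-431, from the same antisense transcript, were low. miR-432-5p had 193 reads (20.9 CPM) at E90, 9 reads (2.48 CPM) at P30d and 7 reads (0.706 CPM) at P7y. All 7 reads at P7y and 2 of the 9 at P30d were a 16 nt read with a mismatch, listed under the mouse hairpin and without a place in the pig genome. On hairpins of known pig miRNAs alone, the log2 ratio of miR-432-5p was -3.43 (-4.76 to -2.36) for P30d over E90, against -3.07 (-4.22 to -2.12) with all lines. The ratio for P7y over P30d, -1.82 (-3.48 to -0.22) with all lines, was -0.74 with TMM factors and -0.77 with DESeq2 size factors, and those intervals held 0. On known pig hairpins miR-432-5p had 0 reads at P7y, and with 3 reads in place of 0 the log2 ratio was -2.70 for P7y over P30d and -6.13 for P7y over E90, with both intervals below 0. miR-431-5p had 43 reads (4.65 CPM) at E90 and 0 reads in both later libraries. With 3 reads in place of 0, it was 5.62-fold lower at P30d and 15.4-fold lower at P7y than at E90. The log2 interval limits nearest to 0 were -2.13 and -3.58. miR-431-3p went the other way on 5 reads at P30d (1.38 CPM), with 0 reads at E90 and at P7y. With each 0 set to 3 reads its ratio was 4.25-fold for P30d over E90, and the interval limit nearest to 0 was 1.23 on the log2 scale. For P7y over P30d its log2 ratio was -2.19 and the nearest limit -1.33. The table lists 4 of the 5 reads as 5p, and they were moved to the 3p arm because they hold its sequence. With arms as the tables list them, miR-431-5p thus had 4 reads at P30d, and no member arm was higher at P30d than at E90 (10 lower, 0 higher). That setting also counts as 5p some miR-370 lines at E90 whose mismatched reads hold the 3p sequence. Its count of lower arms therefore does not reflect miR-431 alone. miR-432-3p had 1 read in all, at E90.

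Outside the antisense group, miR-370-3p and both arms of miR-493 were also highest at E90. miR-370-3p, reported in human hepatoma cells to repress CPT1A, an enzyme that brings fatty acids into mitochondria, had 1135 reads (123 CPM) at E90, 58 reads (16.0 CPM) at P30d and 10 reads (1.01 CPM) at P7y. Its log2 ratio was -2.94 (-3.35 to -2.56) for P30d over E90, -3.99 (-5.12 to -3.01) for P7y over P30d and -6.93 (-7.99 to -6.04) for P7y over E90. miR-370-5p had 17 reads (1.84 CPM) at E90, 2 reads (0.552 CPM) at P30d and 15 reads (1.51 CPM) at P7y. For P7y over E90 its log2 ratio was -0.28 (-1.39 to 0.81), an interval that held 0. A line with 0 reads without a mismatch gave 6 of its 17 reads at E90. Of the 1152 reads of both miR-370 arms at E90, 145 came from 5 lines on other chromosomes that held 0 reads without a mismatch, and the others from lines without a genome position.

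miR-493-5p had 112 reads (12.1 CPM) at E90, 3 reads (0.828 CPM) at P30d and 14 reads (1.41 CPM) at P7y. miR-493-3p had 96 reads (10.4 CPM) at E90, 11 reads (3.04 CPM) at P30d and 16 reads (1.61 CPM) at P7y. Both arms were lower at P30d than at E90, with log2 ratios of -3.87 (-6.17 to -2.29) for the 5p arm and -1.77 (-2.82 to -0.87) for the 3p arm. For P7y over P30d the intervals of both arms held 0. miR-665 had 1 read in all, at P30d, which does not separate it from 0 in the other libraries.

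A member arm was called lower or higher where its log2 ratio was 1 or more in size and the interval left out 0. At P30d against E90, 9 of the 13 arms were lower and 1, miR-431-3p, was higher. Over all 988 arms 20.2% were lower and 18.7% higher in that comparison. At P7y against P30d, 5 of 13 were lower, beside 32.1% of all arms, and 1, miR-127-5p, was higher, beside 6.88% of all arms. That comparison changed with the scaling, to 3 lower and 3 higher with TMM factors and to 3 lower and 2 higher with DESeq2 size factors. miR-370-5p was then among the higher arms under both, at 2.53 (0.42 to 5.70) with TMM factors, and miR-493-5p with TMM factors alone, at 1.84 (0.0024 to 4.28). The miR-370-5p ratio sets 15 reads at P7y against 2 mismatched reads at P30d. At P7y against E90, 9 of 13 were lower, beside 34.5%, and 0 were higher, beside 9.11%. The remaining arms were within 2-fold, had intervals that held 0, or had 3 reads or fewer in both libraries. Arms without a ratio could not be called. In the 3 comparisons in the order above, 11, 10 and 10 member arms had a ratio, and 9, 5 and 9 were lower. Of all arms, 651, 607 and 677 had a ratio, and 200, 317 and 341 were lower. The shares of 988 thus understate the background among arms with a ratio. On both bases the share of members lower was over the background in both comparisons with E90 and near it after P30d. With a mean of 10 CPM or more only 3 member arms remained, miR-127-3p, miR-136-3p and miR-370-3p. Of these, 3 were lower at P30d against E90 (35.4% of all 325 arms at that level), 2 at P7y against P30d (56.0%) and 3 at P7y against E90 (50.8%). That mean includes E90, through which miR-370-3p passed, so these counts describe the 3 arms and are no support for the direction.

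The median log2 ratio of the member arms with a ratio was -2.53 for P30d over E90, against -0.17 over all arms. It was -1.24 for P7y over P30d, against -1.27 over all arms, and -3.75 for P7y over E90, against -1.10 over all arms. The comparisons share libraries, so these values are not independent of each other.

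**Figure D3:**
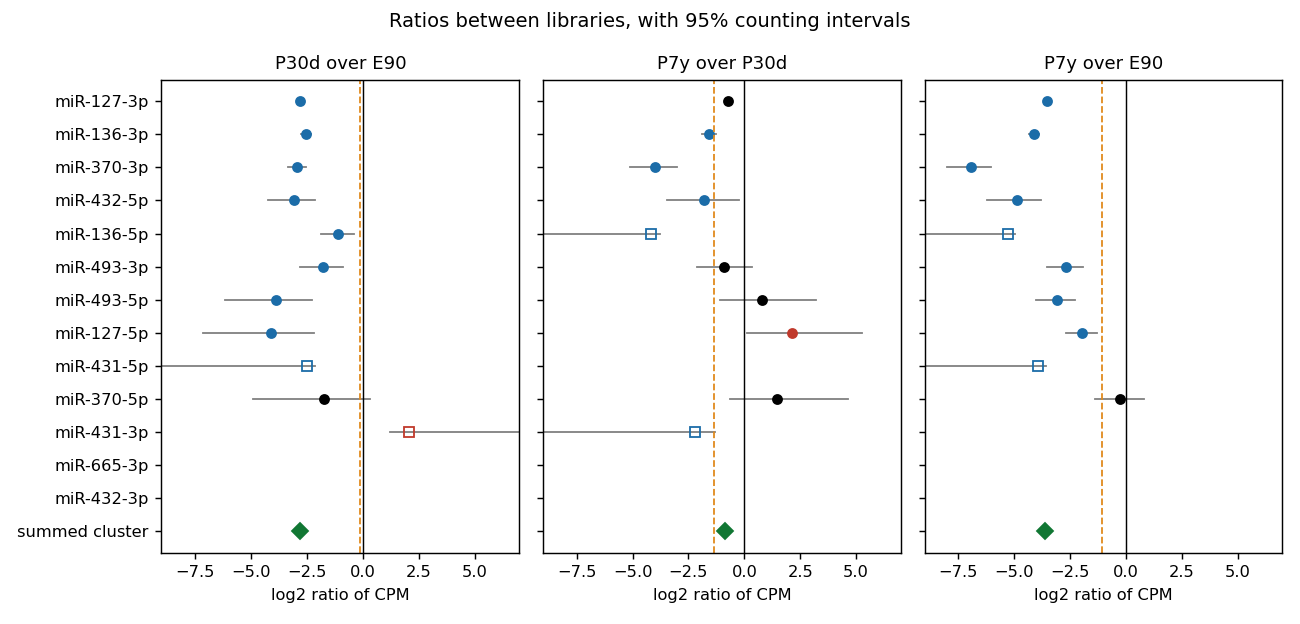
Log2 ratio of CPM, later over earlier library, for each member arm and for the summed cluster (diamond), with 95% counting intervals. Blue marks arms called lower, red arms called higher, black neither. Open squares have 0 reads in one library, set to 3 reads. The solid line is 0 and the dashed line the median of the 325 arms with a mean of 10 CPM or more. In the comparisons with E90 the summed cluster lies at -2.79 and -3.63, left of medians of -0.11 and -1.07, and for P7y over P30d it lies at -0.85, right of a median of -1.37.

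Ratios between members do not depend on the library total. miR-127-3p had 10.2, 8.30 and 14.9 reads for each read of miR-136-3p at E90, P30d and P7y. The log2 change of this ratio was -0.29 (-0.53 to -0.04) for P30d over E90 and 0.84 (0.50 to 1.18) for P7y over P30d. miR-127-3p had 22.2, 24.1 and 231 reads for each read of miR-370-3p at the same stages. That change was 0.11 (-0.28 to 0.53) for P30d over E90, whose interval held 0, and 3.26 (2.27 to 4.40) for P7y over P30d. The 3 main arms thus stood in similar proportions at E90 and P30d and in other proportions at P7y, where miR-370-3p was the lowest on 10 reads.

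The arms of a hairpin are also free of the total. The 5p arm held 0.344% of miR-127 reads at E90 (0.275% to 0.424%), 0.143% at P30d (0.0173% to 0.516%) and 1.03% in the P7y library (0.660% to 1.53%). Its 24 reads at P7y, against 2 at P30d, made miR-127-5p higher by a log2 ratio of 2.13 (0.12 to 5.26). In the miR-136 hairpin the 5p arm held 4.21% at E90 (3.47% to 5.05%), 10.6% at P30d (6.62% to 16.0%) and 0% at P7y (up to 2.35%). The 3p arm dominated both hairpins in each library. miR-370 had 15 reads of the 5p arm and 10 of the 3p arm at P7y, a 5p share of 60.0% (38.7% to 78.9%), against 1.48% at E90 (0.862% to 2.35%). At 25 reads it was under the 50 reads set for a comparison of arms.

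With at least 50 reads of the hairpin in both libraries, the balance of arms (log2 of 5p over 3p) moved 2-fold or more in 2 of 3 members for P30d over E90, beside 68.8% of all 208 hairpins. It did so in 2 of 2 members for P7y over P30d, beside 76.9% of 195 hairpins, and in 2 of 2 for P7y over E90, beside 58.8% of 216. Shifts of this size were common in these tables and are no result about the members. Reads were moved to their matching arm for members only, so the shares over all hairpins rest on arms as listed. For miR-136 the balance moved by 1.46 (0.64 to 2.18) for P30d over E90. For miR-127 it moved by 1.61 (0.87 to 2.26) for P7y over E90.

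The first base of a read sets its seed. Among arms whose representative read had 20 or more copies in at least 2 libraries, it differed between libraries for miR-136-3p and miR-127-5p. The representative read of miR-136-3p began 1 base inside the listed mature end at E90 (1403 copies among 2483 reads) and at P30d (96 among 168), but at the listed end at P7y (77 among 155).
miR-136-3p at P7y: cATCATCGtctcaaatgagtct
miR-136-3p at E90 and P30d: aTCATCGTctcaaatgagtct
miR-127-5p at P7y: tGAAGCTCagagggctctgat
miR-127-5p at E90: cTGAAGCTcagagggctctgat
The capitals again mark bases 2 to 8, which are shifted by 1 base within each pair. At P7y, 24 of 24 reads of miR-127-5p were the shifted form, whereas the listed form had 26 copies among 87 reads at E90. For miR-136-3p and miR-127-5p 1 representative read is given per library, so, apart from miR-127-5p at P7y, the copies of the other form of each arm are not known. Whether the seeds in use changed was therefore not tested.

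The read of miR-127-3p was the same in each library. It held 33.0% of the arm's reads at E90 (32.4% to 33.5%), 47.5% at P30d (44.9% to 50.2%) and 29.5% in the P7y library (27.7% to 31.4%). Reads with a mismatch made up 30.2%, 19.9% and 35.0% of miR-127-3p in the 3 libraries in the order of age, and 18.6%, 13.9% and 21.7% of all named miRNA reads. For miR-136-3p they were 2.26%, 3.57% and 1.29%. The mismatch share of miR-127-3p moved with that of the whole library, and its part in the levels was measured by leaving such reads out, which gave a log2 ratio of the summed cluster of -2.69 for P30d over E90 and -3.68 for P7y over E90.

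The distal miRNAs of the same imprinted region, miR-379 to miR-656, gave a comparison within DLK1-DIO3. Of 45 names listed, 37 had a read, on 64 arms. Their sum was 4574 CPM at E90, 572 CPM at P30d and 177 CPM at P7y, and the interval of the log2 ratio ran between -3.06 and -2.93 for P30d over E90. The log2 ratio was -1.69 (-1.79 to -1.60) for P7y over P30d and -4.69 (-4.76 to -4.62) for P7y over E90. Of the 64 arms, 35 were lower and 3 higher at P30d against E90, beside 20.2% and 18.7% of all 988 arms. At P7y against P30d, 29 were lower and 1 higher, beside 32.1% and 6.88%. At P7y against E90, 49 were lower and 1 higher, beside 34.5% and 9.11%. In these comparisons 56, 39 and 56 of the 64 arms had a ratio. The 3 most abundant were miR-409-5p, with 2039, 83.9 and 40.3 CPM at E90, P30d and P7y, miR-381-3p with 350, 168 and 41.9 CPM, and miR-758-3p with 353, 26.5 and 12.3 CPM.

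Of the reads of the proximal members and the distal list together, the proximal share was 41.1% at E90 (40.7% to 41.5%). It was 44.7% at P30d (43.1% to 46.3%) and 59.2% in the P7y library (57.7% to 60.7%). miR-770 and miR-1247 of the same region are in neither group. At E90, P30d and P7y, miR-770-5p had 75, 24 and 121 reads and miR-1247-5p had 3, 131 and 38. The log2 change of proximal over distal reads was 0.21 (0.11 to 0.31) for P30d over E90, 0.85 (0.72 to 0.98) for P7y over P30d and 1.06 (0.97 to 1.15) for P7y over E90. Without miR-127-3p the change was 0.41 (0.22 to 0.60) for P30d over E90 and 0.44 (0.24 to 0.64) for P7y over E90. For P7y over P30d it was then 0.030 (-0.24 to 0.30), an interval that held 0. The higher proximal share at P7y than at P30d thus rested on miR-127-3p.

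**Figure D4:**
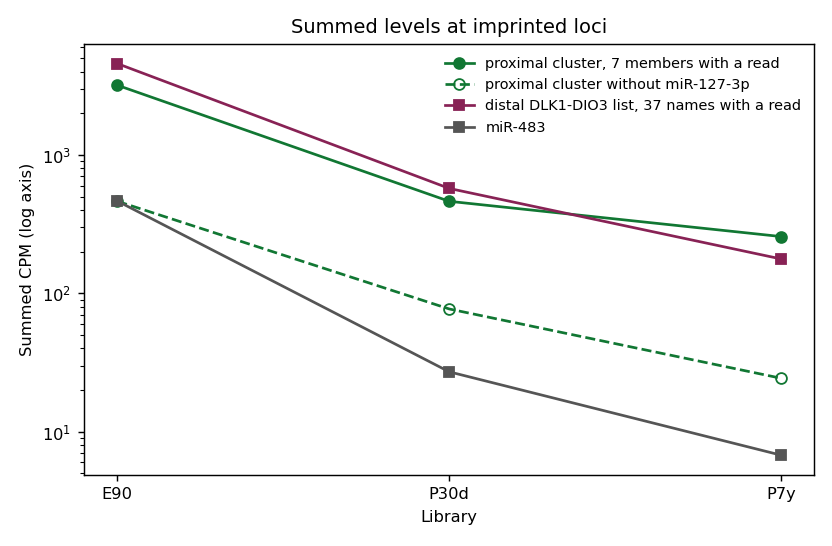
Summed CPM (log axis) in the libraries of E90, P30d and P7y for the proximal cluster, for the proximal cluster without miR-127-3p, for the distal DLK1-DIO3 list and for miR-483 of the imprinted IGF2 gene. The proximal sum is below the distal one at E90 (3191 against 4574 CPM) and above it at P7y (257 against 177 CPM). Without miR-127-3p the proximal sum stays below the distal one.

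miR-483, which lies in IGF2, another imprinted gene, had 464 CPM at E90, 27.0 CPM at P30d and 6.75 CPM at P7y. Its 3p arm had 4217, 98 and 67 reads. Among 321 arms outside the cluster at 10 CPM or above on average that had a ratio in both steps, the 5 whose log2 ratios for P30d over E90 and P7y over P30d lay closest to those of the summed cluster were miR-532-3p, miR-450b-5p, miR-210-3p, miR-130b-5p and miR-660-5p. Their distances in the plane of the 2 ratios were 0.35, 0.40, 0.53, 0.70 and 0.70 on the log2 scale, over 3 libraries. miR-532-3p had 119, 22.1 and 12.3 CPM at E90, P30d and P7y. None of the 5 was in the distal list.

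Cell type markers moved with stage as well. The hepatocyte list (miR-122, miR-192, miR-194 and miR-148a, 4 of 4 with a read) held 34.2%, 38.2% and 30.4% of named miRNA reads at E90, P30d and P7y. Of it, miR-122-5p had 128017, 213802 and 37870 CPM, highest at P30d and lowest at P7y. miR-192-5p had 109467, 109310 and 154836 CPM and miR-148a-3p 75920, 41822 and 95666 CPM, both highest at P7y and lowest at P30d. The most abundant miR-194 arm, miR-194a-5p, had 258228, 52813 and 151401 reads, which in CPM was highest at E90. The erythroid list (miR-451, miR-144 and miR-486, 3 of 3 with a read) held 0.724%, 0.303% and 0.182%. In it, miR-451-5p had 3941, 1339 and 1223 CPM and miR-486-5p 1147, 445 and 406 CPM, both highest at E90. By contrast, miR-144-3p had 978, 1195 and 123 CPM, highest at P30d. The other arm of that hairpin, miR-144-5p, had 10799, 198 and 664 reads and was highest at E90. Against E90, 5 of the 6 erythroid arms were lower at P30d and 6 of 6 at P7y, and 0 were higher. Of all 988 arms, 20.2% and 34.5% were lower in these comparisons. The mesenchymal list (5 of 5 with a read) held 6.01%, 6.79% and 11.5%, the endothelial miR-126 1.33%, 1.19% and 1.36%, and the leukocyte list (4 of 4 with a read) 0.0980%, 0.345% and 0.0946%. These sums hide opposed arms. Of the 3 most abundant mesenchymal arms, miR-143-3p (51124, 17730 and 102623 CPM) was highest at P7y, but miR-199a-5p (3349, 40212 and 2539 CPM) and miR-199a-3p at P30d. Of the 3 most abundant leukocyte arms, miR-142-5p was highest at P30d, but miR-142-3p and miR-223-3p at E90. The muscle list (3 of 3 with a read) stayed at or under 0.00422% and the neural list (2 of 2 with a read) at or under 0.00180%, with 1, 3 and 17 reads of miR-124a-3p. The muscle marker miR-206 had 1 read at E90 and 0 at P30d and P7y, and no other marker was at 0 in any library. The sum of the erythroid list was highest at E90, as the cluster was, although miR-144-3p was not. Its part in the cluster's levels was not tested.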

How the data were processed

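For each library the authors deposited a table of hairpin arms. Per the file headers, the reads of an arm are expected counts, because reads shared by several hairpins were split among these. Copies of the representative read and reads per hairpin are deposited as counts. Sscrofa10.2 is the genome build in the submitters' processing notes. The sources used here do not name the aligner, the trimming or the mismatch limit.

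Expected counts were summed over copies of each arm and rounded to whole numbers. Of 1007 names, 17 that shared their main read (18 nt or more, over 50% of reads) were merged, none of them a member. Lines of a member whose read shared 12 nt with the mature sequence of the other arm only were moved to that arm. Lines of all other miRNAs kept the arm as listed, and the effect of this on the background shares was not tested. CPM are per 1000000 named miRNA reads, which were 98.3%, 96.0% and 99.9% of the 9406525, 3775157 and 9935073 reads at E90, P30d and P7y. Log2 ratios have exact conditional binomial intervals and shares exact Clopper-Pearson intervals. Arm balances add 0.5 to each arm. No p-value is given, since 1 library per stage leaves no residual spread.

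All member arms were named, with the 3 distal arms of highest mean CPM, the 5 arms of nearest pattern, miR-483 and the marker lists. List names without a letter also took names with one (miR-194a). Members and lists were chosen with earlier results of these data known. Alternatives used TMM (edgeR 4.0.16) and median-of-ratios factors (DESeq2 1.42.0). The software was R 4.3.3 and Python 3.11.15 with SciPy 1.17.1, NumPy 2.4.6, pandas 2.3.3 and matplotlib 3.10.9. The ratio was tested on simulated Poisson counts.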

Additional observations from a re-analysis of the deposited data

How the results depend on the processing

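The sums and counts of both comparisons with E90 kept their direction under each alternative tried. For P7y over P30d the summed log2 ratio of -0.85 turned to 0.23 under TMM and 0.20 under DESeq2 factors, and passed the 2-fold size with the representative read only (-1.36) and without miR-127-3p (-1.66). TMM and DESeq2 factors each lowered the count of arms lower at P7y against P30d from 5 to 3, and a mean of 10 CPM or more left 3, 2 and 3 arms lower at P30d against E90, P7y against P30d and P7y against E90. The proximal over distal change for P7y over P30d was 0.030 without miR-127-3p. That setting, unmerged names, distal names with the listed letter only and arms as the tables give them were chosen after the data were seen. Among 211 ratios of single arms, 188 kept sign and side, 9 became weaker, 4 stronger and 10 turned. For P7y over P30d, miR-127-3p turned to 0.35 (TMM) and 0.32 (DESeq2), and miR-493-3p to 0.16 and 0.13. miR-370-5p for P7y over E90 turned to 0.72 (TMM), 0.77 (DESeq2), 0.33 (known pig hairpins), 0.69 (representative read) and 0.041 (total without the 5 most abundant arms). miR-431-5p for P30d over E90 turned to 0.10 with the representative read, where 0 is set to 3 reads. Among arm balances, miR-370 for P30d over E90 turned to -0.44 without mismatched reads. The causes were not tested. No paired analysis was possible because each stage has 1 library, and for the same reason no replicate could be left out. Arms under about 10 reads are limited by depth.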
